A study of Homo sapiens with 4 samples.

Results

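*TFPI2*, *TFPI*, *F3*, *PLAU*, *PLAUR*, *PLAT*, *SERPINE2* and *THBD* were followed across 4 RNA libraries of HEK293 cells, an established line from human embryonic kidney. These 8 genes are the ones of 20457 listed features whose symbols match a set of coagulation inhibitors and plasminogen system genes. *TFPI2* entered the set because it was among the largest increases in these data, so its difference between the groups is described here without a test. All libraries came from HEK293 cells of wild-type genotype, and every group received siRNA (10 nM for 72 h). In 2 libraries the siRNA was a negative control (siControl), and in the other 2 it was directed against *CNOT4* (siCNOT4), which encodes an E3 ubiquitin ligase of the CCR4-NOT system. The stated purpose was to examine whether CNOT4 takes part in how codon usage affects expression. The labels do not say whether the libraries of a group came from separate cultures, so p-values measure only the spread between these libraries.

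Blood coagulation starts when tissue factor, a membrane receptor encoded by *F3*, binds factor VII. *TFPI* encodes a Kunitz-domain inhibitor that blocks the complex of tissue factor and activated factor VII in the presence of factor X, while its relative TFPI2 sits in the extracellular matrix and inhibits plasmin and trypsin. *THBD* encodes thrombomodulin, which binds thrombin and turns it toward activation of protein C. Plasminogen is cut to plasmin by urokinase (*PLAU*), which is held at the cell surface by its receptor (*PLAUR*), and by tissue plasminogen activator (*PLAT*). Protease nexin-1 (*SERPINE2*) inhibits thrombin, plasmin and both activators.

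Stretches of DNA before the starts of *F3* and *TFPI* and around 1 site of *TFPI2* are shown first, because these 3 members are the ones that stood highest against all other genes in siCNOT4. RefSeq promoter windows on GRCh38.p14 were searched for 6 of the 8 members. *PLAT* was left out of the search and *THBD* had no window, so nothing is said of their promoters. Of each window only the 250 bases before the start were used. Letters were searched on both strands for the GC box GGGCGG, the EGR1-type sites GCGGGGGCG and GCGTGGGCG, the AP-1 site TGACTCA, the CRE TGACGTCA, the E-box CACGTG and TATAAA. Matches are in capitals. The *F3* stretch (chr1:94541801-94542009, minus strand) ends before the first annotated exon base. The *TFPI* stretch (chr2:187554493-187554685, minus strand) does too. For *TFPI2* (chr7:93890852-93890881, minus strand) only 30 bases are shown, since 238 of the 250 bases lie in an exon of *TFPI2* in GENCODE 29. The motif set was chosen knowing that *EGR1* had the largest increase.
F3: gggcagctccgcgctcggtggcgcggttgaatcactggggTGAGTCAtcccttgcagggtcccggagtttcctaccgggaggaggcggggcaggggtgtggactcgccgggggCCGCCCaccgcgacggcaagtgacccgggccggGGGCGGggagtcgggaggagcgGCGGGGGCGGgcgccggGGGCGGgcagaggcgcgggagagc
TFPI: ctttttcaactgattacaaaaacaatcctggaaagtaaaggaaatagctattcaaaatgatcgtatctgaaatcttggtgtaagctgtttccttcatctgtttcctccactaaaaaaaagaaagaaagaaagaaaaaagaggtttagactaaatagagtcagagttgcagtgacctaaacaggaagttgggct
TFPI2: agtttgcagcGCGGGGGCGGcggggtgaca
PLAUR: gagggggaggCGCCCACGCatctggggctg
The *TFPI2* and *F3* windows each held the first EGR1-type site, starting 118 and 82 bases before the start, and in both it overlapped a GC box. The *PLAUR* window held the second form on the opposite strand, shown in 30 bases (chr19:43670240-43670269, minus strand). The *TFPI* window held none of the 7 motifs, and its GC content was 38.4%, against 64.4% for *TFPI2*, 78% for *F3* and a median of 58% over 35116 windows. Of those windows, 4.72% held the first EGR1-type site, 0.720% the second, 42.6% a GC box and 4.2% the AP-1 site. The AP-1 letters occurred in the *F3* and *PLAUR* windows. A match is a run of letters, and binding was not measured.

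The tables hold TPM, which is abundance per transcript length, scaled by the authors to a sum of 1000000 in each library, so levels can be compared between genes. The values step in whole reads, and the smallest set of whole reads that gives them sums to 27634579 and 25725706 for the siControl libraries and 29027646 and 28737464 for the siCNOT4 libraries. Intervals on single libraries are exact 95% Poisson intervals on these reads, and cover counting error only. *CNOT4* itself had 6.43 and 4.73 TPM in siControl and 3.38 and 3.81 TPM in siCNOT4. The groups did not overlap, siCNOT4 being lower, but the log2 fold change of -0.51 (SE 0.26) was not called (limma adjusted p = 0.184). The 14208 tested genes had a median log2 fold change of 0.50, and for 81.2% of them it was positive. With TMM, which scales libraries by a trimmed mean of log ratios, the median was 0.0087, and *CNOT4* was at -0.95 (limma adjusted p = 0.0359). Fold changes below are therefore set against this median too. Of 8 genes listed as markers of HEK293, *KRT8*, *KRT18*, *VIM*, *NEFL* and *CDH2* stood at 51.8 TPM or more in every library. *NES* and *PAX2* had 1.1 to 2.52 TPM and *NEFM* was under 1 TPM. Of the 8, *VIM* was called lower in siCNOT4 (917 and 650 against 369 and 354 TPM, limma adjusted p = 0.0288). The 9 endothelial markers were all under 1 TPM, with *CLDN5* at 0 in every library. Their sum was 0.310 to 0.430 TPM in siControl and 1.47 to 1.61 TPM in siCNOT4. Higher values of low features were not particular to markers. Over all features, 17661 and 17531 were above 0 TPM in siControl, against 18667 and 18629 in siCNOT4. At 1 TPM or more the numbers were 13724 and 13262 against 14543 and 14625. The summed TPM of the 8 fibroblast markers was 1.80 to 2.85 in siControl and 10.7 to 10.9 in siCNOT4, with *COL1A2* at 0.0152 TPM or less in every library. The fibroblast markers in the fit were *COL1A1* and *LUM*. *COL1A1* was called higher, with 1.39 and 0.906 against 5.09 and 6.60 TPM (limma adjusted p = 0.0248). *LUM* had 0.182 and 0.225 against 3.75 and 2.67 TPM. Over the 12 alternatives that gave them a value, the log2 fold change was 1.03 to 2.27 for *COL1A1* and 1.11 to 3.58 for *LUM*. Of all tested genes, 11.3% were called higher. Tested genes had a mean of at least 1 TPM over the libraries, which *LUM* met through siCNOT4, its siControl mean being 0.204 TPM. The p-value of *LUM* is therefore left out, and its values are a description only. *PDGFRA*, not tested, overlapped between the groups, at 0.833 and 0.455 against 0.752 and 0.549 TPM. The sum of the 8 monocyte markers was 23.2 to 31.6 in siControl and 26.9 to 29 in siCNOT4, nearly all of it *CD68*. The trophoblast markers, of a tissue known for *TFPI2*, summed to 6.45 to 7.59 TPM in siControl and 10.3 to 10.7 TPM in siCNOT4, mostly from *CGA*. The part of other cell types in the differences below was not tested. In bulk RNA, fewer cells of a type and less RNA per cell cannot be told apart.

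In siControl, the inhibitor *SERPINE2* and the activator *PLAT* had the highest levels and *TFPI2* the lowest. The order by mean TPM was *SERPINE2*, *PLAT*, *TFPI*, *PLAUR*, *F3*, *THBD*, *PLAU* and *TFPI2*. The library values overlapped for the neighbours *SERPINE2* and *PLAT*, *TFPI* and *PLAUR*, and *THBD* and *PLAU*. In siCNOT4 the order was *SERPINE2*, *TFPI*, *PLAUR*, *PLAT*, *TFPI2*, *F3*, *PLAU* and *THBD*, and only *PLAUR* and *PLAT* overlapped among neighbours. *TFPI2* passed from the lowest place to the fifth.

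**Figure D1:**
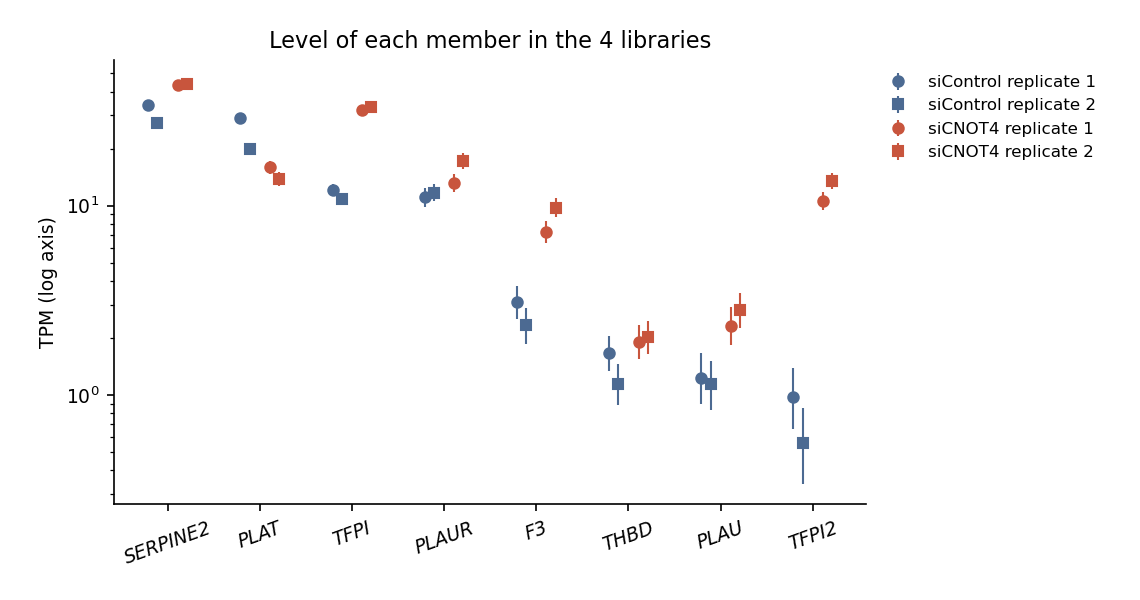
TPM (log axis) of the 8 members in the 2 siControl and 2 siCNOT4 libraries, with 95% Poisson intervals of the recovered reads as bars. *TFPI2* lies at 0.979 TPM or less in siControl and at 10.6 TPM or more in siCNOT4, and *PLAT* is the only member whose siCNOT4 points lie below its siControl points.

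Of the 7 members other than *TFPI2*, 2 were higher in siCNOT4 at a limma adjusted p under 0.05 (*TFPI* and *F3*), 0 were lower, and 5 were not called. Over all 14208 tested genes, 12.6% were called, 11.3% higher and 1.30% lower. An unadjusted limma p under 0.05 was reached by 3 of the 7, and by 42% of all tested genes. The median log2 fold change of the 7 was 0.50, as was that of all tested genes. Both siCNOT4 libraries lay above both siControl libraries for 7 of the 8 members, which is how 66.4% of all tested genes lay, and below them for 1 member, *PLAT*, as for 10.6% of all genes. Relative to the median fold change of all genes, 4 members were above and 4 below. All 8 members had a mean TPM of at least 1 over the libraries and were in the fit, but *TFPI2* met this minimum through siCNOT4, its siControl mean being 0.768 TPM.

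Tissue factor and its inhibitor rose together. *F3* (chromosome 1, 94529225 to 94541800, GRCh38, GENCODE 29) had 3.10 and 2.33 TPM in the siControl libraries and 7.28 and 9.77 TPM in the siCNOT4 libraries. These rest on 96, 82, 215 and 285 reads. Both siCNOT4 values were above both siControl values, by 2.35 to 4.19 times over the 4 pairs of libraries. On the log2(TPM + 1) scale, which understates changes of low genes, *F3* rose by 1.35 (SE 0.28, limma adjusted p = 0.0403), or 0.85 above the median of all genes. In the fold changes of all tested genes, *F3* held place 811 from the top. The call did not hold after quantile normalization (0.72, limma adjusted p = 0.0545), at a pseudocount of 0.1 (0.0578), without a filter (0.0672), at a mean TPM of at least 5 (0.0598) or without either siCNOT4 library: the limma adjusted p was 0.197 without replicate 1 and 0.353 without replicate 2.

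*TFPI* (chromosome 2, 187464230 to 187565760), the inhibitor of the tissue factor complex, had 12.1 and 10.8 TPM in siControl and 31.9 and 33.1 TPM in siCNOT4. The groups did not overlap, and replicates differed by at most 1.12 times within a group. The mean was 11.5 ± 0.890 TPM in siControl and 32.5 ± 0.804 TPM in siCNOT4 (SD, n = 2 each), a ratio of 2.84. *TFPI* rose by 1.43 on the log2(TPM + 1) scale (SE 0.24, limma adjusted p = 0.0285), which is 0.93 above the median of all genes. It was called under all 4 other scalings tried, at 0.91 after TMM scaling, 0.89 after quantile normalization, 0.72 after removal of each library's trend with transcript length and GC content, and 1.22 with voom on the recovered reads. The shares of all genes called higher under these scalings were 4.45%, 7.11%, 11.8% and 11.7%. It was not called at a mean TPM of at least 5 (limma adjusted p = 0.0513), without siCNOT4 replicate 1 (0.303) or without siCNOT4 replicate 2 (0.327). The ratio of *TFPI* to *F3* TPM, at 3.91 and 4.65 in siControl and at 4.39 and 3.39 in siCNOT4, overlapped between the groups.

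*TFPI2* (chromosome 7, 93885396 to 93890991), the matrix-bound Kunitz inhibitor, had 0.979 and 0.556 TPM in siControl, from 31 and 20 reads. In siCNOT4 it had 10.6 and 13.5 TPM from 319 and 403 reads. The 95% Poisson intervals of the siControl libraries ran from 0.665 to 1.39 TPM and from 0.340 to 0.859 TPM. Those of the siCNOT4 libraries ran from 9.45 to 11.8 TPM and from 12.2 to 14.9 TPM. The groups lay far apart, with pairs of libraries differing by 10.8 to 24.3 times. The ratio of the group means was 15.7, and the log2 fold change was 2.89 (SE 0.27), or 2.38 above the median of all genes. In the order of fold changes for TPM as deposited, *TFPI2* took place 3 of 14208. *EGR1* (3.07) and *CLIP3* (2.97) were just above it, and *SDCBP2-AS1* (2.79) and *MIR612* (2.74) just below. Its log2 fold change was 3.84 at a pseudocount of 0.1 and 3.70 in a fit to the recovered reads. After quantile normalization it was 2.26. The place depended on the scaling. The share of tested genes with a lower fold change was 99.98% for TPM as deposited, TMM scaling and quantile normalization. It was 99.94% after trend removal and 99.90% with voom.

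Within the pair of inhibitors, the share of *TFPI2* in the summed TPM of *TFPI2* and *TFPI* was 7.49% and 4.88% in siControl against 24.9% and 29% in siCNOT4. *TFPI* thus remained the more abundant inhibitor mRNA in every library. The ratio of *TFPI2* to *F3* passed from below 1 in siControl, at 0.316 and 0.239, to 1.45 and 1.38 in siCNOT4. These ratios rest partly on the contrast by which *TFPI2* was chosen and are given without a test.

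*THBD* (chromosome 20, 23045633 to 23049741), the thrombin-binding cofactor of protein C activation, is encoded by 1 exon. It had 1.67 and 1.15 TPM in siControl and 1.91 and 2.03 TPM in siCNOT4, from 68 to 100 reads. The groups did not overlap, but the gap between them was smaller than the difference between the siControl replicates. Its log2 fold change of 0.31 (SE 0.20) was not called (limma adjusted p = 0.263) and was 0.19 smaller than the median of all genes. The sign turned with the scaling, to -0.023 after TMM scaling and -0.33 after quantile normalization. Without siControl replicate 1 it was called at 0.47 (limma adjusted p = 0.0440), but in that fit 11311 of 14208 genes were.

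Of the plasminogen activators neither was called for TPM as deposited, and *PLAT* stood lower and *PLAU* higher in siCNOT4. The difference between these 2 genes was not tested. *PLAT* (chromosome 8, 42175233 to 42207724) had 28.9 and 19.9 TPM in siControl and 15.9 and 13.8 TPM in siCNOT4. It was the only member with both siCNOT4 libraries below both siControl libraries. For TPM as deposited the log2 fold change of -0.66 (SE 0.28) was not called (limma adjusted p = 0.129). It was 1.16 below the median of all genes, and 354 of 14208 genes had a lower value. *PLAT* was called lower after TMM scaling (-1.18, limma adjusted p = 0.0299), quantile normalization (-1.20, 0.0248), trend removal (-1.21, 0.00887) and in a voom fit to the recovered reads (-0.98, 0.0365). The shares of all genes called lower under these scalings were 4.33%, 8.23%, 13.8% and 3.08%. It was also called without siControl replicate 1 (-0.40, limma adjusted p = 0.0227) and without siControl replicate 2 (-0.92, 0.00212), where 11311 and 8171 genes were called.

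*PLAU* (chromosome 10, 73909177 to 73917497), which encodes urokinase, had 1.23 and 1.14 TPM in siControl and 2.32 and 2.80 TPM in siCNOT4, from 43, 45, 77 and 92 reads. The groups did not overlap and the ratio of the means was 2.16. The log2 fold change of 0.70 (SE 0.19) did not pass the threshold (limma adjusted p = 0.0596), and it was 0.20 above the median of all genes. After quantile normalization it was 0.038. Without siControl replicate 1 it was called at 0.73 (limma adjusted p = 0.00959), and without siControl replicate 2 at 0.67 (0.0223), in fits that called 79.6% and 57.5% of all genes.

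*PLAT* remained the more abundant activator mRNA, but its share of the summed *PLAT* and *PLAU* TPM was 95.9% and 94.6% in siControl against 87.3% and 83.1% in siCNOT4. The groups did not overlap in this share. The ratio of *PLAT* to *PLAU* was 23.4 and 17.5 in siControl against 6.86 and 4.91 in siCNOT4. A ratio within a library does not depend on the scaling between libraries by a single factor.

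*PLAUR* (chromosome 19, 43646095 to 43670547), the urokinase receptor, had 11.1 and 11.7 TPM in siControl and 13.2 and 17.3 TPM in siCNOT4. The siCNOT4 replicates differed by 1.31 times, about as much as the group means, whose ratio was 1.34. Its log2 fold change was 0.38 with an SE of 0.28 and was not called (limma adjusted p = 0.316). It was -0.13 after TMM scaling and -0.21 after quantile normalization. The ratio of *PLAU* to *PLAUR* was 0.111 and 0.0970 in siControl against 0.176 and 0.162 in siCNOT4, without overlap.

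*SERPINE2* (chromosome 2, 223975112 to 224039319), the inhibitor of thrombin and of both activators, was the most abundant member in siCNOT4 and by mean in siControl. It had 34.1 and 27.2 TPM in siControl and 43.1 and 43.8 TPM in siCNOT4, from 1222 to 1628 reads. The log2 fold change was 0.50 with an SE of 0.22 (limma adjusted p = 0.131), within 0.0025 of the median of all genes. It was -0.036 after TMM scaling and -0.15 after trend removal. Without siControl replicate 1 it was called at 0.65 (limma adjusted p = 0.000685), and without siControl replicate 2 at 0.34 (0.0168), in fits that called 79.6% and 57.5% of all genes. Set against the activators, the ratio of *SERPINE2* to *PLAT* was 1.18 and 1.37 in siControl against 2.71 and 3.18 in siCNOT4. The ratio of *SERPINE2* to *PLAU* went the other way, at 27.6 and 24.0 in siControl against 18.6 and 15.6 in siCNOT4. The groups did not overlap in either ratio.

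**Figure D2:**
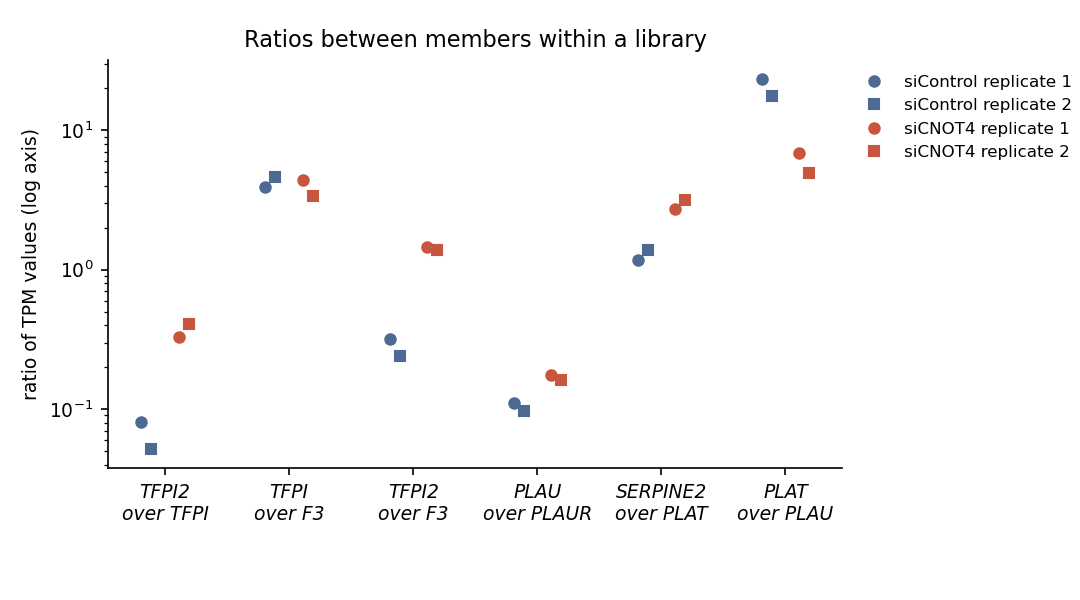
Ratios of TPM between members within each library (log axis), for 2 siControl and 2 siCNOT4 libraries. The groups overlap for *TFPI* over *F3* and are apart for the other 5 ratios, with *TFPI2* over *TFPI* at 0.0809 or less in siControl and 0.331 or more in siCNOT4. The share of all gene pairs that are apart was not computed. Of single tested genes, 66.4% were apart and higher in siCNOT4, and 10.6% apart and lower.

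**Figure D3:**
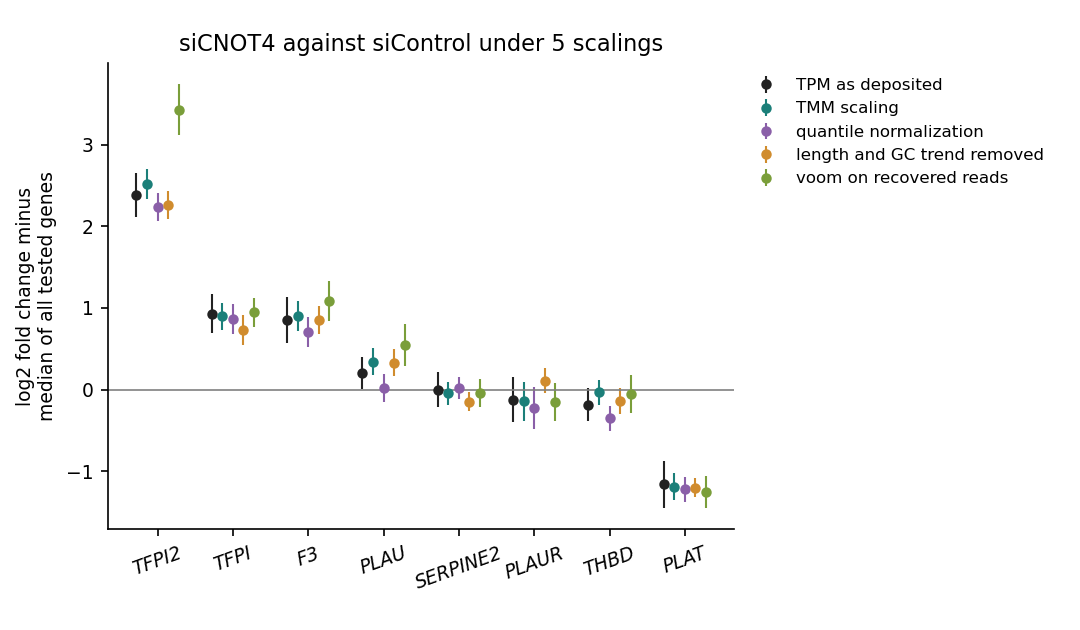
Log2 fold change of each member minus the median of all tested genes, under 5 scalings, with the standard error of each fit as bars. *TFPI2*, *TFPI* and *F3* lie above 0 and *PLAT* below 0 under all 5, while *SERPINE2* and *PLAUR* lie on both sides.

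The scaling also set how all genes divided: 89.7% of the called genes were higher in siCNOT4 for TPM as deposited, 50.7% after TMM scaling, 46.4% after quantile normalization, 46.1% after trend removal and 79.2% with voom. The shares of all tested genes called in either direction were 8.78% with TMM, 15.3% with quantile normalization, 25.6% with trend removal and 14.8% with voom. Relative to the median of all genes, *TFPI2*, *TFPI* and *F3* stayed above it and *PLAT* below it under each of these and under voom. The range over the 5 scalings was 0.73 to 0.95 for *TFPI*, 0.70 to 1.09 for *F3* and -1.25 to -1.16 for *PLAT*. *PLAU* was above the median under all 5, by 0.019 to 0.54, and *THBD* below it, by -0.35 to -0.032.

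Among 94 further listed genes of 7 functional lists around these members, 54 were tested, 7 were called higher and 0 lower, with 18 or fewer called under any scaling. Their median log2 fold change was 0.48, against 0.50 for all tested genes, of which 11.3% were called higher. The 7 were *SERPINI1*, *SERPINB8*, *ANXA2*, *MMP11*, *TIMP2*, *EGR1* and *KLF2*. The increase of *EGR1* was known when it was listed, so its call was given in advance and the count of 7 is a description only. Without siCNOT4 replicate 1, 2 of the 54 were called (3.35% of all genes), and without siCNOT4 replicate 2, 1 was (3.17%). Without siControl replicate 1 the number was 41 (79.6% of all genes), and without siControl replicate 2 it was 37 (57.5%).

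The plasminogen list held 3 of the 7 among its 8 tested genes that are no members, with a median of 0.60. Of all tested genes, 11.3% were called higher. *SERPINI1*, which encodes neuroserpin, an inhibitor of tissue plasminogen activator, had 4.66 and 3.76 TPM in siControl and 25.6 and 27.2 TPM in siCNOT4. It rose by 2.40 on the log2(TPM + 1) scale (SE 0.27, limma adjusted p = 0.0227), and by 1.81 after quantile normalization. Without siCNOT4 replicate 2 its limma adjusted p was 0.0531. *SERPINB8*, an intracellular serpin, had 4.12 and 3.07 against 11.6 and 12.4 TPM, a log2 fold change of 1.51 (limma adjusted p = 0.0325). It was not called without siCNOT4 replicate 1 (0.255) or replicate 2 (0.290). *ANXA2*, a cell surface binding partner of plasminogen and tissue plasminogen activator, had 85.2 and 84.2 against 145 and 137 TPM. Its log2 fold change was 0.73 (limma adjusted p = 0.0414), and 0.19 after TMM scaling (0.521). It was called under 3 of 13 alternatives, and not without siCNOT4 replicate 1 (limma adjusted p = 0.414) or replicate 2 (0.364). Its partner *S100A10* had 113 and 153 against 133 and 129 TPM, overlapping between the groups.

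Plasminogen itself was close to absent: *PLG* was at 0.0183 TPM in 1 siControl library and at 0 in the other 3.

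In the coagulation factor list, 14 of 22 genes had a mean under 1 TPM, and of the 7 tested genes that are no members 0 were called by limma (2 at an unadjusted p under 0.05, as were 42% of all tested genes). The thrombin gene *F2* stood at 0.163 TPM or less, and *F7*, whose product tissue factor binds, at 0.127 TPM or less. *F10* had 0.402 and 0.0885 TPM in siControl and 0.950 and 1.28 TPM in siCNOT4, with a mean under 1 TPM. The median of the 7 tested genes was 0.44, and they lay on both sides of 0. Named after their values were seen, *VKORC1*, which recycles vitamin K, had 126 and 147 against 89.2 and 90.2 TPM (-0.59, limma adjusted p = 0.0596), and *F12* had 6.06 and 8.19 against 4.07 and 4.28 TPM (-0.64, 0.126). *LMAN1*, a cargo receptor for factors V and VIII, had 122 and 63.1 against 199 and 179 TPM (1.1, limma adjusted p = 0.0605).

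Of the natural anticoagulants, 0 of the 4 tested genes that are no members were called (1 at an unadjusted limma p under 0.05, against 42% of all tested genes), with a median of 0.28. *PROS1*, which encodes protein S, a cofactor of activated protein C and of TFPI, had 23.6 and 15.4 TPM in siControl and 29.8 and 29.5 TPM in siCNOT4 (0.61, limma adjusted p = 0.144). *PROCR*, the receptor of protein C, had 39.1 and 31.8 against 38.2 and 36.0 TPM, overlapping. The protein C gene *PROC* reached at most 0.322 TPM.

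The other Kunitz-domain genes did not share the calls of *TFPI* by limma: 0 of 5 tested were called (1 at an unadjusted p under 0.05, against 42% of all tested genes), with a median of 0.22. *SPINT1*, a membrane inhibitor of serine proteases, had 15.4 and 9.90 against 18.8 and 20.6 TPM (0.63, limma adjusted p = 0.156). Its relative *SPINT2* had 275 and 248 against 300 and 309 TPM (0.22, limma adjusted p = 0.250). Whether *TFPI* and these genes differ in response was not tested.

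Of the protease-activated receptors, through which thrombin and other proteases signal, *F2R* had 42.8 and 21.7 TPM in siControl and 57.1 and 52.6 TPM in siCNOT4 (0.82, limma adjusted p = 0.114). *F2RL1* had 34 and 20.9 against 43.2 and 43.0 TPM (0.67, limma adjusted p = 0.120). Neither was called. Both had siControl replicate 2 well under replicate 1. This was not particular to the receptors, as siControl replicate 2 had the lowest TMM factor of all libraries (0.706).

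Among 10 tested metalloproteinases and their inhibitors, 2 were called higher, as were 11.3% of all tested genes, with a list median of 0.45. *MMP11* had 1.64 and 1.32 against 4.87 and 4.64 TPM (1.22, limma adjusted p = 0.0311), and *TIMP2*, an inhibitor of matrix metalloproteinases, 22.6 and 18.8 against 38.2 and 40.9 TPM (0.91, limma adjusted p = 0.0499). *TIMP2* was called under 3 of 13 alternatives, and not after TMM scaling (0.38, limma adjusted p = 0.140) or without siCNOT4 replicate 1 (0.443) or 2 (0.505). *MMP11* was called under 7 of 12, and not after quantile normalization (0.57, limma adjusted p = 0.0632) or without siCNOT4 replicate 1 (0.176) or 2 (0.151).

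The list of factors known to act on promoters of these genes had 18 tested members, with a median of 0.51. Of these, *EGR1* and *KLF2* were called higher, and of all tested genes 11.3% were. As the call of *EGR1* was given in advance, this count is a description only. *EGR1*, an immediate early zinc finger factor, had 14.4 and 7.41 TPM in siControl and 80.1 and 112 TPM in siCNOT4. It rose by 3.07 (SE 0.35), and by 2.55 to 3.51 over the 13 alternatives. *EGR1* had the largest increase of all tested genes for TPM as deposited and was listed with this known. Its p-value is therefore left out, and its call is a description only. *KLF2* had 1.31 and 1.65 against 4.37 and 4.62 TPM (1.15, limma adjusted p = 0.0339), and 0.48 after quantile normalization (0.162). It was called under 6 of 12 alternatives, and not without siCNOT4 replicate 1 (limma adjusted p = 0.178) or 2 (0.208). The remaining 16 were not called.

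**Figure D4:**
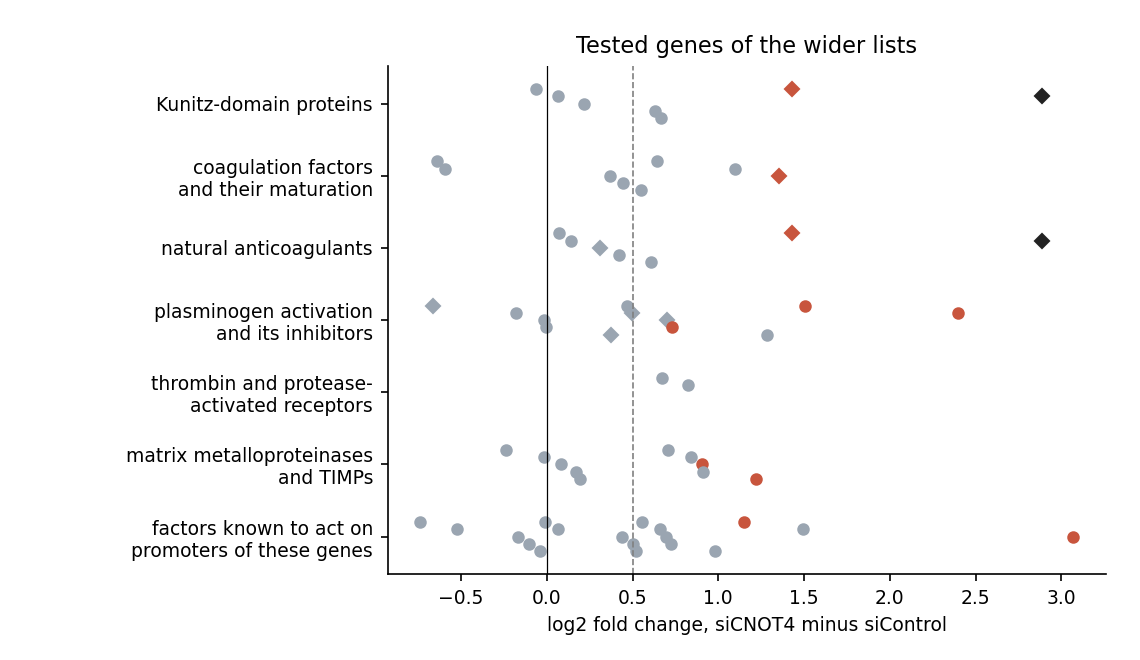
Log2 fold change of every tested gene of the 7 functional lists, one row per list, with members as diamonds and other genes as circles, the dashed line at the median of all tested genes (0.50) and the solid line at 0. Red marks genes called higher and black marks *TFPI2*, which has no test; called genes other than the members lie in the plasminogen, metalloproteinase and promoter factor rows.

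By the Euclidean distance between centred log2(TPM + 1) profiles over the 4 libraries, the 5 of 14207 tested features nearest to *TFPI2* were *CLIP3* (0.119), *HIST1H2BC* (0.198), *SDCBP2-AS1* (0.219), *HIST1H2BJ* (0.389) and *EGR1* (0.430). *CLIP3*, which encodes a linker protein of microtubules, had 1.81 and 1.07 TPM in siControl and 16.3 and 19.6 TPM in siCNOT4. Over 4 libraries this measure reflects mainly the size of the group difference. Of the members, *TFPI* held place 448 in this order, *F3* place 567 and *PLAT* place 13830.

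By RefSeq gene positions, the listed features next to *TFPI2* at lower coordinates were *CALCR*, *MIR4652* and *VPS50* (listed as *CCDC132*). Those at higher coordinates were *GNGT1*, *GNG11* and *BET1*. *GNG11*, a G protein gamma subunit gene 30982 bp away, had 16.4 and 22.7 TPM in siControl and 46.9 and 50.6 TPM in siCNOT4 and rose by 1.29 (limma adjusted p = 0.0341). After TMM scaling it was at 0.76 (limma adjusted p = 0.143), and without siCNOT4 replicates 1 and 2 the limma adjusted p was 0.249 and 0.311. It was called under 5 of 13 alternatives. *VPS50* had 8.47 and 5.37 against 15.1 and 14.7 TPM (1.03, limma adjusted p = 0.0667). *BET1* overlapped between the groups (0.052). *CALCR*, the calcitonin receptor gene, had 0.0387 and 0 TPM in siControl and 0.508 and 0.658 TPM in siCNOT4, without overlap but with a mean under 1 TPM, so that it was not tested. *MIR4652* also had a mean under 1 TPM and overlapped.

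Exons of *GNGT1* overlap those of *TFPI2* by 44 bp on the opposite strand, and the strand setting of the counting is not given in the sources used here. *GNGT1* had 3.69 and 3.46 TPM in siControl and 4 and 3.92 TPM in siCNOT4, a log2 fold change of 0.12. Its siControl level was above that of *TFPI2* and its siCNOT4 level below. *C10orf55* overlaps *PLAU* by 916 bp on the opposite strand and was at 0.0645 TPM or less. The antisense genes *AC002076.1* and *AC007319.1* overlap *TFPI2* by 79 bp and *TFPI* by 118 bp and were not analysed here.

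Codon usage, the subject of the study, varied widely among the members. GC3, the percentage of codons with G or C as last base, was 35.5% in *TFPI*, 53.2% in *F3*, 54.4% in *TFPI2*, 58.2% in *SERPINE2*, 65.9% in *PLAU*, 69.9% in *PLAUR*, 73.1% in *PLAT* and 85.6% in *THBD*. The median over 12876 tested genes was 59.0%. The 3 members that stood highest in siCNOT4 had GC3 below that median, and the lowest member, *PLAT*, had it above. *SERPINE2*, with a fold change close to the median of all genes, also had GC3 below the GC3 median. *THBD*, with the highest GC3, did not have the lowest fold change. The GC content of whole transcripts, with which GC3 goes together, was lowest in *TFPI* as well (35.1%). The members were chosen in part on the contrast, so no relation is drawn from this.

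The 3′ untranslated regions (UTR) of the members differed in the pentamer ATTTA, the core of AU-rich elements that bind proteins acting on mRNA decay. The longest annotated 3′ UTR of *TFPI2* held 14 matches, or 9.83 per kilobase, and that of *TFPI* 17 (6.28 per kilobase). *F3* had 6 (4.86) and *THBD* 9 (4.2). *SERPINE2*, *PLAT* and *PLAU* had 2 each, and *PLAUR* 0. These densities put *TFPI2*, *TFPI* and *F3* above 99.5%, 96.8% and 92.4% of tested genes. *THBD*, whose fold change was under the median of all genes, was above 88.4% of them in density. Across 12665 genes, the Spearman rho between this density and the siCNOT4 against siControl fold change was 0.239, compared with 0.335 when siControl replicate 1 was set against replicate 2 and 0.329 when this was done within siCNOT4. After removal of length and GC trends it was 0.013. Genes share library and base composition in such a correlation, and it is given as a description. Among 959 genes with at least the density of *F3*, which include *TFPI2*, *TFPI* and *F3*, the median log2 fold change was 0.63 and 14% were called. For the remaining 11706 genes these were 0.50 and 12.3%. The cutoff was the lowest density of these 3 members, which stood highest in the same contrast, so the split is a description only.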

How the data were processed

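Poly(A) RNA of HEK293 cells was sequenced with a stranded kit, per the labels' protocols. Reads were checked with FastQC 0.11.2, and STAR 2.5.3a, featureCounts and the build hg19 were used, per the submitters' processing notes. Annotation, gene lengths and strand setting are not given in the sources used here. The authors deposited TPM values for 20457 features per library, and the replicates were not pooled. Groups were taken from the sample titles. The 14208 features whose mean TPM over the libraries reached 1 were tested on log2(TPM + 1) with limma 3.58.1 (R 4.3.3; lmFit, eBayes with a trend, prior df 4.22), 2 libraries against 2, two-sided, with Benjamini-Hochberg adjustment over all tested features and a threshold of 0.05. The depth came from the TPM steps: whole reads, to 0.001 read, were found for 19733 of 19734 features above 0. Count models were not used, as TPM is no count. Alternatives were the pseudocount, filter, scaling, trend, replicate block, left-out libraries and, added after seeing the data, voom (limma) on the recovered reads. The fit and the recovery were tested on simulated data.

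Named genes were *CNOT4*, the members, 14 fixed genes of the wider lists (not all of them are reported here), up to 5 called genes per list and direction, the 3 neighbours on each side of *TFPI2*, overlapping genes and the 5 nearest profiles. Other genes were named after their values were seen. Members, lists and motifs were chosen with earlier results of these data known. Positions of members, overlaps, codon and UTR measures came from GENCODE 29 (GRCh38), to which 19389 features matched. Neighbours of *TFPI2* and their distances came from RefSeq gene positions. Promoter sequences are from RefSeq (GRCh38.p14).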

Additional observations from a re-analysis of the deposited data

How the results depend on the processing

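The direction of *TFPI2*, *TFPI*, *F3*, *PLAU* and *PLAT* was the same under every alternative run. The cause of each change was not tested, other than that filters and left-out libraries change how many genes or libraries enter. For *TFPI2*, the log2 fold change was 3.84 with a pseudocount of 0.1, 2.52 after TMM scaling, 2.26 after quantile normalization, 2.25 after trend removal and 3.70 with voom. *TFPI* lost its call at a mean TPM of at least 5 (1.43). *F3* lost it at a pseudocount of 0.1 (1.61), without a filter and at a mean TPM of at least 5 (1.35 each), and after quantile normalization (0.72). *PLAT* was called after TMM scaling (-1.18), quantile normalization (-1.20), trend removal (-1.21) and voom (-0.98). Signs turned for *PLAUR* (-0.13 TMM, -0.21 quantile), *SERPINE2* (-0.036 TMM, -0.15 trend removal) and *THBD* (-0.023 TMM, -0.33 quantile, -0.15 trend removal). Leaving out 1 library gave 1.36 to 1.5 for *TFPI*, 1.16 to 1.54 for *F3*, 0.60 to 0.80 for *PLAU*, 0.19 to 0.56 for *PLAUR*, -0.92 to -0.40 for *PLAT*, 0.34 to 0.65 for *SERPINE2* and 0.16 to 0.47 for *THBD*. *PLAU* and *THBD* have no value at a mean TPM of at least 5.

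For TPM as deposited, 1792 genes were called. The number was 558 with a pseudocount of 0.1, 908 without a filter, 147 at a mean TPM of at least 5, 3637 after trend removal, 756 without the eBayes trend and 450 to 11311 with 1 library left out. The wider lists had 7 called genes, and 3, 2 and 2 with the first 3 of these settings, 18 after trend removal and 1 to 41 with 1 library left out. Where a group was left with 1 library, that library is assumed to vary like those of the other group.

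Replicate numbers are shared between the groups, but only 2 pairs exist and nothing in the labels says that a number marks a shared culture or day. Same-numbered libraries had a correlation of deviations of 0.171. With a replicate block 3655 genes and 14 genes of the wider lists were called, and no call of the other 7 members changed. Low reads limit *TFPI2*, *PLAU* and *THBD* in siControl.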
